A study of Mus musculus with 47 samples.

Results

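The subject is a set of 9 receptor genes through which the hypothalamus reads hormones and peptides of feeding and metabolism: the leptin receptor Lepr, the prolactin receptor Prlr, the ghrelin receptor Ghsr, the neuropeptide Y (NPY) receptors Npy1r, Npy2r and Npy5r, the incretin receptors Glp1r and Gipr, and the insulin receptor Insr. They are 9 of the 14221 genes in a table of read counts from the hypothalamus of 47 mice, with 1 library per mouse. The set was chosen by name and by measured values of these mice, namely a rise of Npy2r on Day 1 and a fall of Gipr on Day 5 after a single injection of fibroblast growth factor 1 (FGF1), so the values of all 9 genes in the FGF1 contrasts of Days 1 and 5 are given as a description. Members past the calling limits in these contrasts are counted beside the share of all genes, and nothing is read from the counts. The tests concern Day 42 and the comparison between the vehicle groups of Day 5.

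All mice were male Lep ob/ob mice of 11 weeks, which lack functional leptin, so the missing leptin signal was shared by every group. Each received 3 µg of FGF1 or vehicle into the lateral ventricle (intracerebroventricular, icv), and vehicle mice were pair-fed, that is, held to the food intake of FGF1 mice. The study's methods give 5 days of pair-feeding, so the later days up to Day 42 lay outside it. The groups were FGF1 (n = 10) and non-diabetic vehicle (n = 4) on Day 1, FGF1 (n = 9), non-diabetic vehicle (n = 7) and diabetic vehicle (n = 7) on Day 5, and FGF1 (n = 5) and non-diabetic vehicle (n = 5) on Day 42. "Non-diabetic" and "diabetic" are the words of the sample labels, which do not define them. The study's methods state that mice without sustained hyperglycaemia were left out, so what sets the non-diabetic vehicle mice apart is not known here. The tissue was a punch of hypothalamus with all its cell types, in which fewer cells of a type and less RNA per cell cannot be told apart.

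These receptors act through different machinery. Leptin and prolactin receptors are cytokine receptors that signal through JAK2 and STAT proteins and are restrained by SOCS3 and CISH. The insulin receptor is a tyrosine kinase that acts through IRS proteins, PI3 kinase and AKT. The NPY, ghrelin, GLP-1 and GIP receptors couple to G proteins: NPY receptors inhibit adenylyl cyclase, incretin receptors stimulate it, and the ghrelin receptor mobilises calcium. In the arcuate nucleus, NPY and ghrelin favour feeding, leptin, insulin and GLP-1 oppose it, and the Y2 receptor serves as an autoreceptor that holds back NPY release.

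The positions below are those of GENCODE M21 on GRCm38. Npy1r (chr8:66697192-66706792, plus strand) and Npy5r (chr8:66679965-66688128, minus strand) are divergent neighbours whose start sites lie 9064 bases apart. Npy2r lies apart from them on chr3:82538383-82548084, minus strand, and Ghsr on the same chromosome at chr3:27371351-27378010, plus strand. Gipr occupies chr7:19156061-19166127 on the minus strand and Glp1r chr17:30901817-30940791 on the plus strand. Lepr lies at chr4:101717404-101815352, plus strand, Insr at chr8:3122061-3279617, minus strand, and Prlr at chr15:10177238-10349180, plus strand. Of the 9 genes, Prlr alone shared exon bases with another annotated gene, 203 bases with Gm21973 on the same strand.

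RefSeq start-site windows were at hand for 7 of the 9 genes (10 windows, GRCm38.p6), and the window of Npy2r is shown because Npy2r had the largest Day 1 difference of the set. It covers the 250 bases before the RefSeq start, chr3:82548086-82548335, written 5′ to 3′ on the minus strand. It holds 56.8% G and C against a median of 52.4% over all 32851 windows, and 12 CpG dinucleotides.
Npy2r: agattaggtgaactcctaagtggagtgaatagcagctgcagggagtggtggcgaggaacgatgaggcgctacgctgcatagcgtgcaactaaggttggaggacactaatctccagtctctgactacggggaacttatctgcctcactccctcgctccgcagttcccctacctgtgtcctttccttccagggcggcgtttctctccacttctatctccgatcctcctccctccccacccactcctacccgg

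The same 250 bases of every window were searched for 4 motifs, each its own reverse complement so that 1 search covers both strands: a STAT-type palindrome (TTCNNNGAA, in 7.02% of all windows), a cyclic AMP response element (TGACGTCA, 1.55%), an AP-1-type element (TGANTCA, 6.75%) and an E-box (CACGTG, 6.02%). None of them stood in the Npy2r window or in those of Ghsr, Lepr and Glp1r. The 4 matches among the members follow with the motif in capitals, in the reading direction of the gene. They are letter matches and nothing more: the Npy1r and Npy5r matches lie at the edge of the GENCODE start sites, and those of Prlr lie in windows of RefSeq starts that lie inside the gene as GENCODE has it.
Npy1r, AP-1-type element, chr8:66697180-66697208, plus strand: tgcgccttgctTGAGTCAaggactagtgg
Npy5r, E-box, chr8:66688118-66688145, minus strand: tcagggactgtCACGTGttcccgaggct
Prlr, STAT-type palindrome, chr15:10223785-10223815, plus strand: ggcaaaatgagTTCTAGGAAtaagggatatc
Prlr, AP-1-type element, chr15:10293620-10293648, plus strand: ttgagttaaaaTGAGTCAtcttctctttc

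Library totals ran from 1243280 counts (FGF1 Day 1, replicate 1) to 47082403, and the group medians of Day 5, 8937263 to 10052056, were the lowest of the 3 days. Of the 16 hypothalamic markers listed, 15 were in the table and none was at 0 throughout a group. All libraries of a day carried the same preparation code, and the 3 days had 3 different codes, so day and preparation cannot be told apart, and levels are compared between days below only as a description. Where nothing else is said, levels are CPM, that is, counts scaled to a common library size, with factors from the trimmed mean of M-values (TMM), and fold changes are log2 fold changes ± SE.

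The members differed widely in level. Per kb of exon, Npy2r and Insr led in the non-diabetic vehicle mice of Day 5, with 8.0 ± 1.29 and 7.48 ± 0.342 CPM per kb (SD, n = 7), and their ranges over mice overlapped. Prlr (4.12 ± 0.411) and Npy1r (3.87 ± 0.229) followed, again overlapping, then Npy5r at 2.56 ± 0.486. Lepr and Ghsr both stood at 1.79 CPM per kb, and Glp1r (0.936 ± 0.257) and Gipr (0.916 ± 0.123) were the lowest and overlapped. In the FGF1 mice of Day 1, Npy2r stood at 12.5 ± 1.96 and Npy1r at 9.53 ± 1.27 CPM per kb (n = 10), ahead of Insr at 5.62 ± 0.781. In the FGF1 mice of Day 5, Gipr was the lowest of the 9 at 0.484 ± 0.137 CPM per kb (n = 9). The order depends on the length used. Per kb of the longest transcript instead of all exons, the non-diabetic vehicle mice of Day 5 had Insr (11.0) above Npy2r (8.04 CPM per kb). Prlr (6.38) again stood above Npy1r (4.45), further apart than per kb of exon. The plot of levels per kb of exon shows the order in every group.

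**Figure D1:**
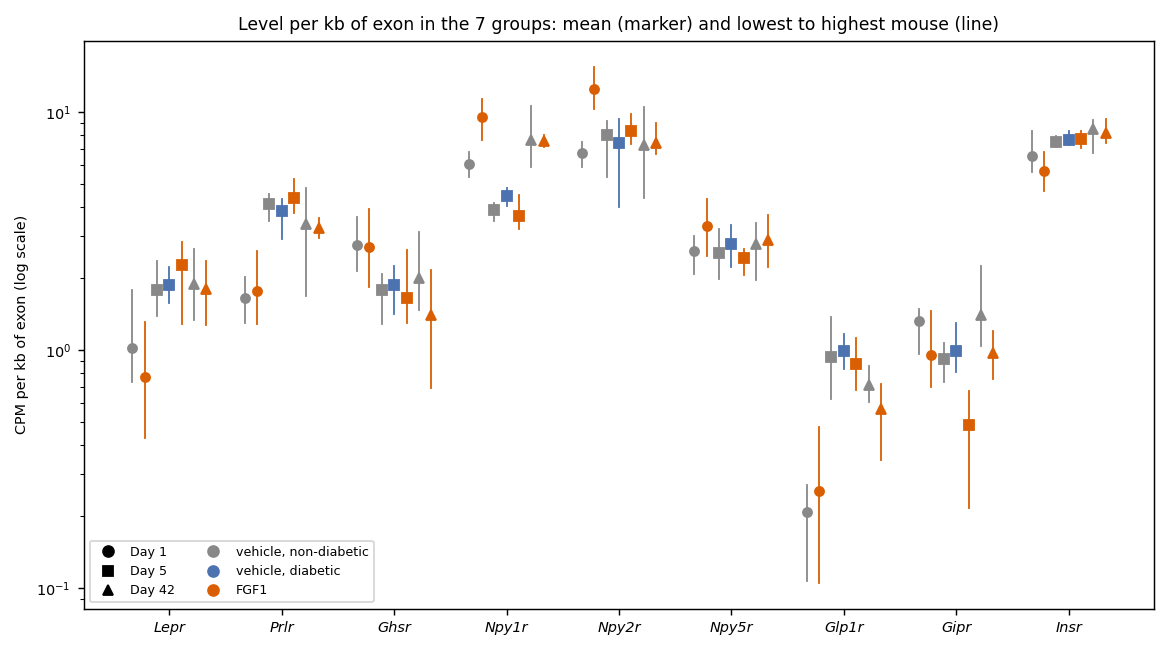
Level of each receptor gene in CPM per kb of exon (vertical axis, log scale) in the 7 groups. Markers are group means (circle Day 1, square Day 5, triangle Day 42), lines run from the lowest to the highest mouse, and colours give the treatment. Npy2r and Npy1r have their highest means in the FGF1 mice of Day 1, 12.5 and 9.53 CPM per kb, and Gipr its lowest in those of Day 5, 0.484 CPM per kb.

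The NPY receptors Npy2r and Npy1r stood apart from vehicle on Day 1. Npy2r, the presynaptic Y2 receptor, measured 20.2, 25.4, 25.2 and 19.8 CPM in the 4 vehicle mice. The 10 FGF1 mice ran from 35.0 to 52.6 with a median of 39.8 CPM. All 10 thus lay above all 4 vehicle mice, with a log2 fold change of 0.91 ± 0.16 (1.88-fold). Npy1r, the postsynaptic Y1 receptor that mediates much of the feeding response to NPY, measured 18.5, 20.7, 23.3 and 20.9 CPM in vehicle mice and 26.4 to 39.0 with a median of 32.4 CPM in FGF1 mice. The groups again did not overlap, and the log2 fold change was 0.65 ± 0.10 (1.56-fold). Npy5r, the Y5 receptor and divergent neighbour of Npy1r, differed less: vehicle mice measured 6.48, 7.68, 7.24 and 5.31 CPM and FGF1 mice 6.37 to 10.9 with a median of 7.66, and 5 of 10 FGF1 mice lay above all vehicle mice (0.32 ± 0.15). Without the shallowest library, in which Npy2r had 46 reads and Npy1r 47, the log2 fold changes of Npy2r and Npy1r were 0.92 and 0.63.

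The ligand of these receptors went the other way. Npy itself is not a member, but it stands in a list of ligands chosen with earlier results of these mice known, so its values are a description. It measured 81.7 to 235 CPM in the 4 vehicle mice and 80.8 to 151 CPM in the 10 FGF1 mice of Day 1, so that the groups overlapped. Npy fell by 0.61 ± 0.23 on the log2 scale (edgeR quasi-likelihood F test, adjusted p = 0.0281 over 14221 genes). The vehicle mice varied widely, with an SD of 63.1 CPM around a mean of 166 CPM.

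The remaining 6 members had smaller Day 1 differences than Npy1r and Npy2r, and their groups overlapped. Gipr, the receptor of the incretin GIP, measured 5.06, 5.14, 4.89 and 3.36 CPM in vehicle mice and 2.44 to 5.08 with a median of 3.29 CPM in FGF1 mice, of which 9 of 10 lay below the vehicle median (−0.44 ± 0.17). Without the lowest vehicle mouse, replicate 4, the groups still overlapped and the log2 fold change was −0.56. Insr measured 76.5 to 114 CPM in vehicle mice and 63.9 to 93.4 CPM in FGF1 mice, a difference of −0.22 ± 0.09 that was −0.08 without vehicle replicate 2, the mouse at 114 CPM. Glp1r, the receptor of GLP-1, was near the limit of these libraries on Day 1, with 22 to 68 reads per vehicle mouse (0.621 to 1.58 CPM) and as few as 1 read in the shallowest FGF1 library. Its difference of 0.36 ± 0.24 was 0.15 without vehicle replicate 2 and 0.52 without vehicle replicate 3. Ghsr (0.00 ± 0.20) and Prlr (0.08 ± 0.15) had means within the spread of the vehicle mice.

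Lepr was decided by 1 vehicle mouse on Day 1. The 4 vehicle mice measured 5.88, 12.6, 5.14 and 5.2 CPM, and the 10 FGF1 mice 2.99 to 9.21 with a median of 5.53 CPM. The difference of −0.41 ± 0.22 became 0.00 when replicate 2, the mouse at 12.6 CPM, was left out. In that library the summed markers of neurons (4069 CPM against 3314 to 3607 CPM in the others), astrocytes (4890 against 4195 to 4424 CPM), tanycytes (295 against 189 to 228 CPM) and mural cells (264 against 187 to 234 CPM) were also the highest of the 4 vehicle mice. The sums of hypothalamic, choroid plexus and pituitary markers were also highest in that library, the hypothalamic one by a narrow margin (1784 against 1329 to 1780 CPM). Its sums were not the highest for arcuate neurons (236 against 134 to 348 CPM) and meningeal fibroblasts (1308 against 812 to 1378 CPM). The same held for oligodendrocytes (5184 against 3633 to 5303 CPM) and their precursors (172 against 159 to 182 CPM). For thalamus, cortex and striatum its sum was the lowest (86.6 against 89.3 to 113 CPM). The part of these cell types in the value of Lepr was not tested.

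In all, 2 of the 9 members (Npy1r and Npy2r) passed an adjusted p under 0.05 with an absolute log2 fold change above 0.5 on Day 1, where 19.5% of all genes did, and the same 2 had groups that did not overlap, as 14.4% of all genes did. Nothing is read from these counts, since the contrast chose the set. Cell-type markers differed on Day 1 as well. The 15 hypothalamic markers summed to 937 to 1358 CPM in FGF1 and 1329 to 1784 CPM in vehicle mice, with 10 of 15 lower on average, and the 8 oligodendrocyte markers to 2276 to 4161 against 3633 to 5303 CPM, with all 8 lower on average, both with overlap. The summed CPM of 6 neuronal markers was lower in FGF1 mice, 2458 to 3244 against 3314 to 4069, with 2 of the 6 higher and 4 lower on average. The 5 measured of 13 choroid plexus markers summed to 22.9 to 40.7 CPM against 47.2 to 59.8 CPM, with 1 of the 5 higher on average. The 6 markers of oligodendrocyte precursors summed to 92.0 to 153 CPM against 159 to 182 CPM, with 1 of the 6 higher. The astrocyte sum went the other way, 4602 to 5651 against 4195 to 4890 CPM with overlap, with 2 of its 6 markers higher on average. The sums of the remaining lists overlapped, with a higher median for pituitary markers (11.0 against 7.74 CPM). The part of these cell types in the receptor values was not tested. Over the 47 libraries, after subtraction of group means, the neuronal sum had a Pearson r of 0.28 with Npy1r and −0.35 with Npy2r. The oligodendrocyte sum had −0.24 and −0.41, the hypothalamic sum −0.03 and 0.28, and the precursor sum 0.00 and 0.25. For the choroid plexus sum r was 0.01 and 0.08, and for the astrocyte sum 0.10 and −0.10.

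**Figure D2:**
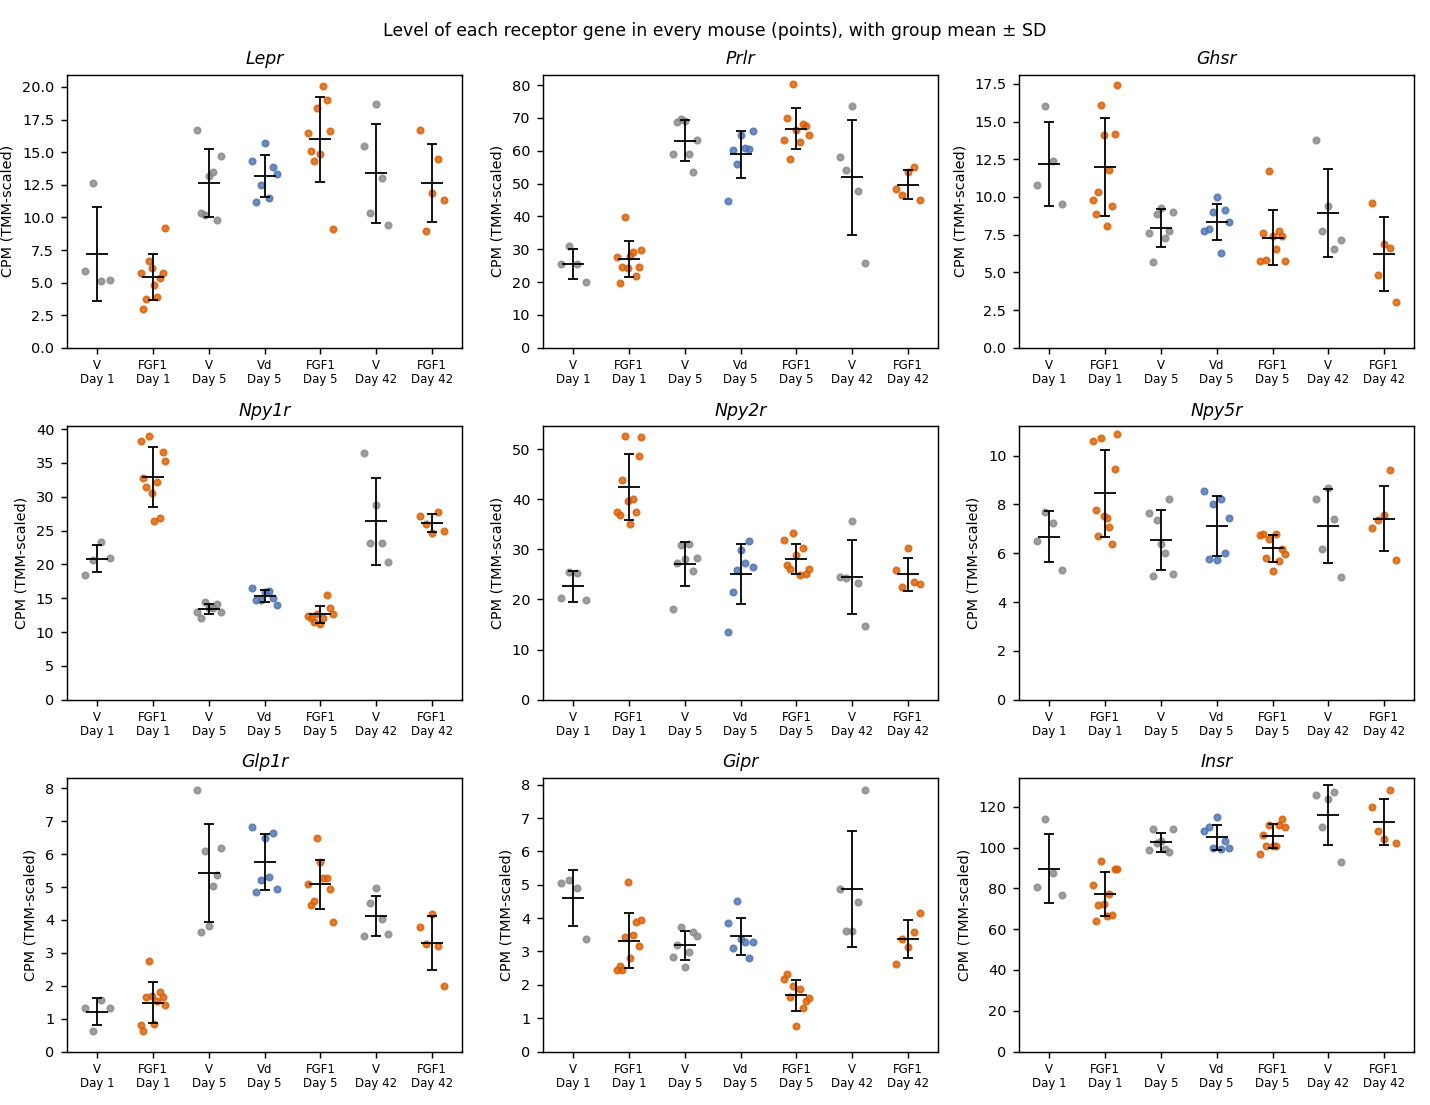
CPM after TMM scaling of each receptor gene (vertical axes, each starting at 0) in every mouse of the 7 groups (horizontal axis; V, vehicle labelled non-diabetic; Vd, vehicle labelled diabetic). Points are mice, horizontal marks are means and bars SD. The 10 FGF1 mice of Day 1 lie at 35.0 to 52.6 CPM for Npy2r, above 19.8 to 25.4 CPM in vehicle, and the 9 FGF1 mice of Day 5 lie at 0.752 to 2.33 CPM for Gipr, below 2.55 to 3.74 and 2.80 to 4.51 CPM in the vehicle groups.

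On Day 5 the member that stood apart from vehicle was Gipr. It ran from 0.752 to 2.33 with a median of 1.63 CPM in the 9 FGF1 mice. The same gene ran from 2.55 to 3.74 with a median of 3.18 CPM in the 7 non-diabetic vehicle mice and from 2.80 to 4.51 with a median of 3.29 CPM in the 7 diabetic vehicle mice. All 9 FGF1 mice lay below all 14 vehicle mice. The log2 fold change was −0.93 ± 0.19 against the non-diabetic and −1.05 ± 0.18 against the diabetic group, about 0.526 and 0.483 of the vehicle level. Gipr is a low gene at this depth, with 6 reads in the lowest FGF1 mouse and 22 in the lowest vehicle mouse of the non-diabetic group. Without the 2 FGF1 libraries that were sequenced deepest on that day, chosen after their depths were seen, the values were −0.88 and −1.01.

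Glp1r, the other incretin receptor, measured 3.95 to 6.48 CPM in the FGF1 mice of Day 5, within the 3.62 to 7.94 CPM of the non-diabetic vehicle mice (−0.11 ± 0.19), and −0.18 ± 0.19 against the diabetic group. None of the NPY receptors stood apart above vehicle on Day 5, and the change from Day 1 was not tested. Npy2r differed by 0.05 ± 0.13 and 0.16 ± 0.13 from the non-diabetic and diabetic groups, and Npy5r by −0.08 ± 0.14 and −0.20 ± 0.14. Npy1r was close to the non-diabetic group (−0.08 ± 0.09) and lower than the diabetic group (−0.27 ± 0.09), with 8 of 9 FGF1 mice below all 7 mice of the latter. Both comparisons use the same FGF1 mice.

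Lepr was the member with the largest difference above vehicle on Day 5, at 9.10 to 20.1 with a median of 16.5 CPM in FGF1 mice against 9.77 to 16.7 with a median of 13.2 and 11.2 to 15.7 with a median of 13.3 CPM. The groups overlapped, with 8 of 9 FGF1 mice above each vehicle median (0.33 ± 0.19 and 0.27 ± 0.19). Prlr (0.08 ± 0.13 and 0.18 ± 0.13), Ghsr (−0.13 ± 0.19 and −0.19 ± 0.19) and Insr (0.04 ± 0.08 and 0.01 ± 0.08) overlapped too. Insr, with the smallest spread relative to its mean, spanned 96.9 to 114 CPM over the 9 FGF1 mice and 97.8 to 109 CPM over the 7 non-diabetic vehicle mice.

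Thus 1 of 9 members (Gipr) passed both limits against either vehicle group, beside 1.54% of all genes against the non-diabetic and 2.85% against the diabetic group, and 1 of 9 had groups that did not overlap, beside 3.93% and 6.08% of all genes. Nothing is read from these counts, for the reason given. Markers of oligodendrocytes, their precursors and astrocytes were higher in the FGF1 mice of Day 5. The 8 oligodendrocyte markers summed to 6117 to 7013 CPM against 4512 to 5974 CPM in the non-diabetic and 4092 to 6125 CPM in the diabetic vehicle mice. The 6 precursor markers summed to 292 to 385 CPM against 168 to 200 and 167 to 186 CPM, and the 6 astrocyte markers to 5026 to 5559 CPM against 4404 to 4604 and 4277 to 4801 CPM. Every marker of these lists had a higher mean in FGF1 than in non-diabetic vehicle mice. The 7 tanycyte markers summed to 298 to 332 CPM against 319 to 354 and 308 to 362 CPM. Of these 7, 4 had a higher mean than in the non-diabetic and 2 than in the diabetic vehicle mice. The 6 neuronal markers summed to 1803 to 2275 CPM in the FGF1 mice against 2246 to 2422 CPM in the non-diabetic and 2097 to 2710 CPM in the diabetic vehicle mice, so that the sums overlapped, and 5 of the 6 had a lower mean in FGF1 mice than in either vehicle group. The part of these cell types in the fall of Gipr was not tested. After subtraction of group means over the 47 libraries, Gipr had a Pearson r of −0.13 with the oligodendrocyte sum, −0.25 with the precursor sum and −0.13 with the astrocyte sum.

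**Figure D3:**
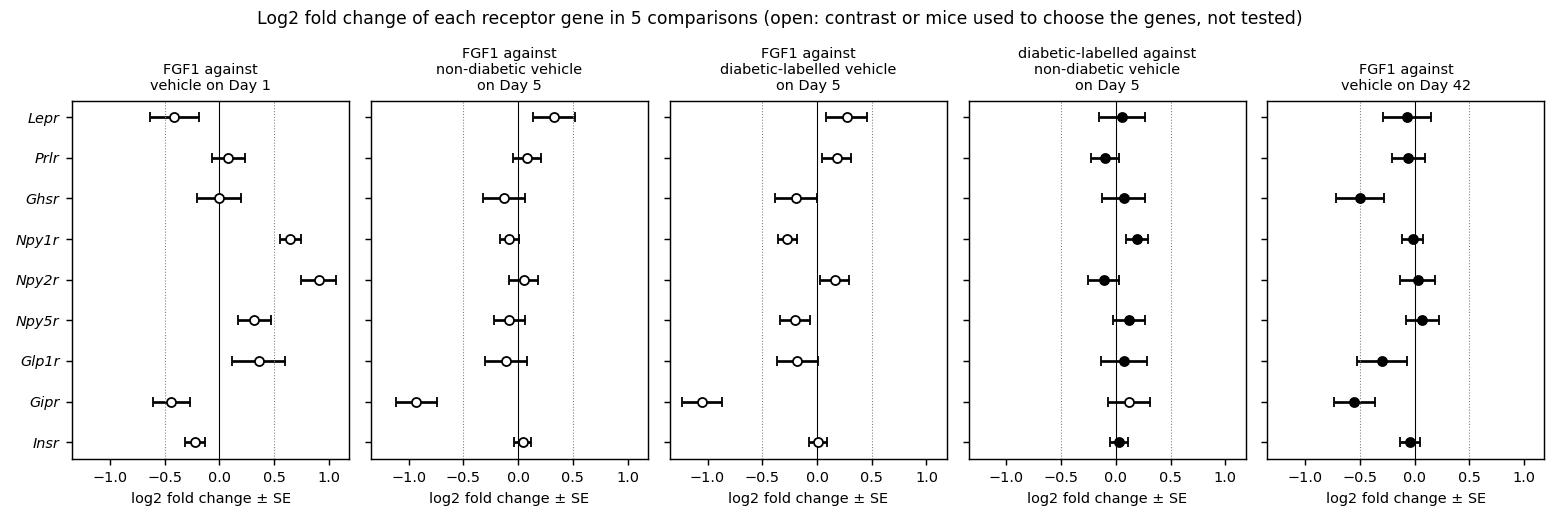
Log2 fold change (horizontal axis) ± SE of the 9 receptor genes in the 5 comparisons, from the edgeR fit over all 47 mice. Open circles are values from contrasts or control mice used in choosing the set and carry no test, filled circles were tested, and dotted lines mark an absolute log2 fold change of 0.5. Npy2r stands at 0.91 on Day 1, Gipr at −0.93 and −1.05 on Day 5 and −0.55 on Day 42.

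Day 42 was not used to choose the set, and no member passed the test there. By edgeR 0 of 9 members and 0 of 14221 genes were called (0%), with 776 genes at an unadjusted p under 0.05, DESeq2 also called 0 genes, with 781 at that level, and limma 0, with 416. Gipr was lowest relative to vehicle. Its 5 FGF1 mice measured 2.63, 3.38, 3.12, 3.58 and 4.16 CPM and its 5 vehicle mice 4.87, 3.61, 3.61, 4.47 and 7.84 CPM. Of the FGF1 mice, 4 lay below all vehicle mice and all 5 below the vehicle median, so the groups overlapped by 1 mouse. The log2 fold change was −0.55 ± 0.19 (95% interval −0.91 to −0.18), with an edgeR unadjusted p of 0.00546 and an adjusted p of 0.505. The two-sided exact permutation test of log2(CPM + 0.5) gave p = 0.0397, where 5 mice against 5 cannot go below 0.00794, and this test was run for all 9 members. Without vehicle replicate 5, the mouse at 7.84 CPM, the log2 fold change of Gipr was −0.31, and over all 15 alternatives it ran from −0.64 to −0.31 with adjusted p from 0.305 to 1. That vehicle mouse also had the highest sum of arcuate neuron markers of the day, 140 CPM against 39.5 to 91.4 CPM in the other 9 mice, and the highest sum of meningeal markers, 1650 CPM against 705 to 1625 CPM. Its sums of tanycyte markers (255 against 290 to 373 CPM) and oligodendrocyte precursor markers (128 against 174 to 226 CPM) were the lowest of the day. The same mouse was also lowest of the day for Npy1r, Npy2r, Npy5r, Insr and Prlr. All 5 arcuate markers measured had lower means in FGF1 than in vehicle mice of Day 42, with overlapping sums, and over the 47 libraries the arcuate sum had r = 0.36 with Gipr within groups, the highest of 12 marker lists. Their part in the value of Gipr was not tested.

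Ghsr, the ghrelin receptor, was the other member with an unadjusted edgeR p under 0.05 on Day 42. FGF1 mice measured 9.61, 4.81, 6.90, 6.63 and 3.05 CPM and vehicle mice 13.8, 7.72, 9.42, 6.53 and 7.14 CPM. The groups overlapped, with 4 of 5 FGF1 mice below the vehicle median. The log2 fold change was −0.50 ± 0.22 (edgeR unadjusted p = 0.0248, adjusted p = 0.807, exact permutation p = 0.143). Single mice moved its size: it was −0.71 without FGF1 replicate 1 (unadjusted p = 0.00248 by edgeR, adjusted p = 0.18), −0.34 without FGF1 replicate 5 and −0.29 without vehicle replicate 1, the ends of its range over 16 alternatives being −0.71 and −0.29. FGF1 replicate 5, the lowest mouse for Ghsr and Glp1r, also had the lowest sum of hypothalamic markers of the day (502 CPM against 787 to 1383 CPM in the other 9 mice) and a sum of choroid plexus markers of 224 CPM against 27.2 to 49.8 CPM. Over the groups of Day 42, 13 of 15 hypothalamic and 5 of 5 arcuate markers had a lower mean in FGF1 than in vehicle mice. A higher mean was seen for 5 of 5 choroid plexus, 8 of 8 oligodendrocyte and 6 of 6 precursor markers. Summed levels overlapped in each list. For choroid plexus, the FGF1 mice other than replicate 5 summed to 27.2 to 41.8 CPM against 33.4 to 49.8 CPM in vehicle mice. The medians of the whole groups were 38.6 and 39.4 CPM. The hypothalamic markers summed to 502 to 1330 CPM in FGF1 and 893 to 1383 CPM in vehicle mice, and Ghsr had a Pearson r of 0.52 with this sum over the 47 libraries after subtraction of the group means. The part of what the punch held in these values was not tested.

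Glp1r measured 3.80, 3.27, 4.17, 3.22 and 2.00 CPM in the FGF1 mice of Day 42 and 3.51, 4.53, 4.96, 4.02 and 3.58 CPM in vehicle mice, with 3 FGF1 mice below all vehicle mice (−0.30 ± 0.23, exact permutation p = 0.103), and −0.18 without FGF1 replicate 5. The NPY receptors were close to vehicle. Npy2r measured 25.8, 22.5, 30.3, 23.4 and 23.0 against 24.5, 24.2, 35.6, 23.3 and 14.7 CPM, a difference of 0.03 with a 95% interval of −0.28 to 0.34. The Npy1r difference was −0.02 (−0.22 to 0.19) and the Npy5r difference 0.07 (−0.23 to 0.36). Lepr, Insr and Prlr differed by −0.07 ± 0.22, −0.04 ± 0.09 and −0.06 ± 0.15, and the direction of Lepr and Prlr turned without vehicle replicate 3. No member had groups that did not overlap on Day 42, as 0.267% of all genes had.

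The vehicle groups of Day 5, neither of which received FGF1, were compared to ask whether the receptors differed with the diabetes label. By edgeR 0 of the 8 members tested and 0 genes in all were called (0%), with 193 genes at an unadjusted p under 0.05, DESeq2 called 0 genes, with 164 at that level, and limma 0, with 1014. Npy1r had the most separated groups, 14.0 to 16.5 with a median of 15.1 CPM in the diabetic and 12.1 to 14.4 with a median of 13.5 CPM in the non-diabetic group. Of the diabetic mice, 6 of 7 lay above all non-diabetic mice, and no member was free of overlap, as 0.0984% of all genes were. The log2 fold change was 0.19 ± 0.10, with an edgeR unadjusted p of 0.0561 and an adjusted p of 1. The two-sided exact permutation test gave p = 0.00175, where 7 mice against 7 cannot go below 0.000583. Limma gave an unadjusted p of 0.0371, and edgeR on the libraries of Day 5 alone 0.00661. The adjusted p of Npy1r ran from 0.671 to 1 over its 6 alternatives. The other 7 members tested lay between −0.11 (Npy2r) and 0.12 (Npy5r) with exact permutation p from 0.293 (Prlr) to 0.553 (Ghsr), and Gipr, whose control mice had served in choosing the set, stood at 0.12 ± 0.19. In the diabetic group 5 of 5 arcuate, 12 of 15 hypothalamic, 5 of 6 neuronal and 7 of 8 meningeal markers had a higher mean. There 8 of 8 oligodendrocyte and 5 of 6 precursor markers had a lower one. The other lists were more evenly divided, and the sums overlapped in every list. The part of these cell types in the receptor values was not tested.

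Between the days, the non-diabetic vehicle mice themselves differed most for Glp1r, at 1.21 ± 0.411 CPM on Day 1 (n = 4), 5.44 ± 1.49 on Day 5 (n = 7) and 4.12 ± 0.622 on Day 42 (n = 5), with no overlap between Day 1 and either later day. Prlr stood at 25.5 ± 4.58, 63.1 ± 6.31 and 51.9 ± 17.5 CPM and Lepr at 7.22 ± 3.64, 12.6 ± 2.62 and 13.4 ± 3.82 CPM. Npy1r was lowest on Day 5 at 13.4 ± 0.791 CPM, against 20.8 ± 1.97 on Day 1 and 26.4 ± 6.42 on Day 42. Npy5r was the most even across days, its highest daily mean being 1.09 times its lowest.

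Other genes of these systems were followed in 5 lists. Among the 4 lists with more than 3 measured genes, leptin and prolactin receptor signalling had the largest share called on Day 1: 6 of 12 measured genes rose and none fell (50% against 19.5% of all genes), with a median log2 fold change of 0.51 against 0.007 over all genes. The list was chosen with earlier results of these mice known, so its share is a description. Socs3, the feedback inhibitor of leptin receptor signalling, rose by 4.5 ± 0.22 (68.1 against 3.04 CPM, adjusted p = 1.06e-21), and Stat3, the transcription factor that the leptin receptor activates, by 1.69 ± 0.08 (adjusted p = 2.57e-21). Cish (0.70 ± 0.21), and the phosphatases Ptpn2 (0.67 ± 0.12) and Ptpn1 (0.55 ± 0.10), which dampen JAK-STAT and insulin signals, rose too. Both STAT3 and SOCS3 also serve many other cytokine receptors, and the mice carried no functional leptin.

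Of 38 other feeding and hormone receptors measured, 9 rose and 2 fell on Day 1 (28.9% against 19.5% of all genes), with a median of 0.11. Hcrtr1, an orexin receptor, rose by 1.17 ± 0.20 (21.3 against 9.67 CPM), Mc4r, the melanocortin receptor that restrains feeding, by 0.95 ± 0.19 (5.06 against 2.64 CPM) and Nmur2, a neuromedin U receptor, by 0.80 ± 0.20. Grpr rose by 1.13 ± 0.39 at a mean below 1 CPM. Ntsr2, a neurotensin receptor found largely on astrocytes, fell by 1.65 ± 0.12 on the log2 scale (84.5 against 262 CPM, adjusted p = 5.15e-16).

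Insulin receptor signalling had 3 of 23 genes higher and 1 lower (17.4%, below the 19.5% of all genes), with a median of 0.05: Enpp1, a membrane protein that hampers the insulin receptor, rose by 1.65 ± 0.27, Akt2 by 0.86 ± 0.12 and the adaptor Shc1 by 0.71 ± 0.11, while Grb14, an adaptor that inhibits the receptor, fell by 0.56 ± 0.11 on the log2 scale. Among 25 genes that transmit or end the signal of G protein-coupled receptors, the kinase Grk5 (0.59 ± 0.12) and the inhibitory G protein Gnai2 (0.53 ± 0.11) rose, the kinase Grk3 (−0.65 ± 0.06) and the adenylyl cyclase Adcy8 (−0.61 ± 0.09) fell (16% of the list, also below the share of all genes), and the median was 0.04. Of 11 ligands of the members 3 were in the table: besides Npy these were Ghrl, which did not pass, and Leap2, which passed as higher with 10 reads over the 10 FGF1 libraries and 0 over the 4 vehicle libraries, too few for a fold. No gene of the 5 lists was called in either FGF1 comparison of Day 5, between the vehicle groups or on Day 42.

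**Figure D4:**
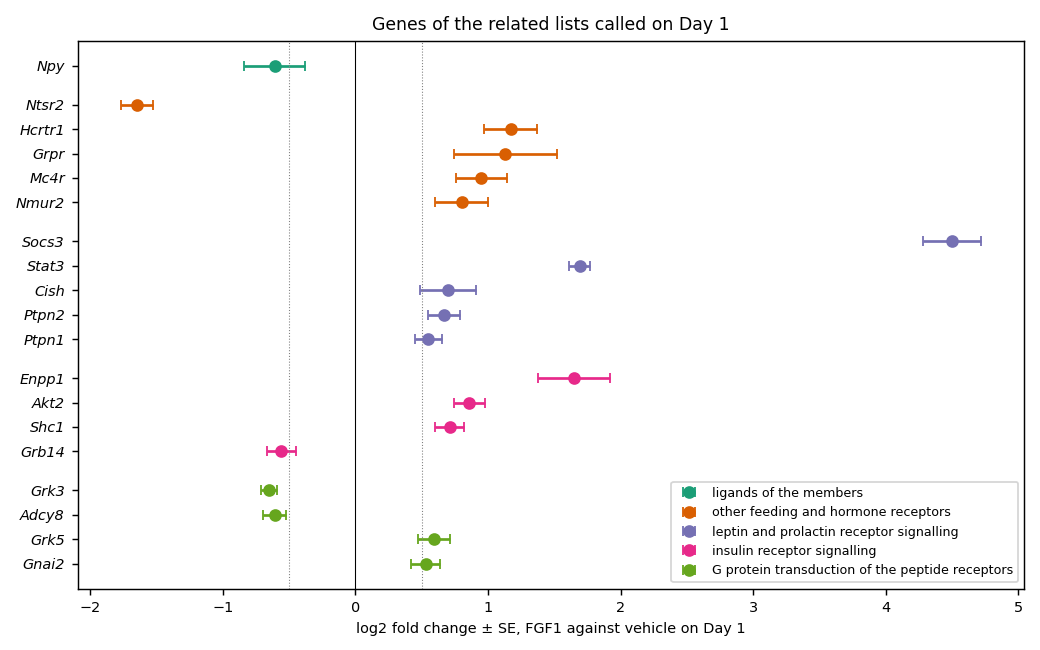
Log2 fold change ± SE (horizontal axis) on Day 1, FGF1 against vehicle, of the genes of the 5 related lists that passed the test, at most 5 per list by size, without Leap2 (10 reads in all). Colours give the list and dotted lines mark an absolute log2 fold change of 0.5. Socs3 (4.5) and Stat3 (1.69) stand highest and Ntsr2 (−1.65) lowest.

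Within groups, members moved with different companions from mouse to mouse. The following correlations are Pearson r over the 47 libraries of log2(CPM + 0.5) after subtraction of the 7 group means, against the genes with a mean of at least 1 CPM, and are descriptions, since the libraries share depth, dissection and preparation. Npy2r was most like Gda (0.81), Cnr1 (0.79), the cannabinoid receptor, and Nts (0.79), neurotensin. Npy1r was most like Wee1 (0.76), AI504432 (0.74) and Ids (0.73), and Npy5r like Pcgf6, Elmod2 and Mbnl1 (each 0.72).

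Prlr had among its closest companions Rab27b (0.85) and Gabrb1 (0.84). Lepr followed Tgfbr3 (0.84), Itih5 (0.81) and Abcg2 (0.79), the last a transporter of vessel walls, and had r = 0.55 with the summed markers of mural cells, 0.56 with those of tanycytes and 0.57 with the 2 measured pituitary markers. The tanycyte sum had a higher r with Insr (0.78), Npy5r (0.67) and Prlr (0.58) than with Lepr. Ghsr was most like Ghr (0.79), the growth hormone receptor, Fgf2 (0.79) and Lpp (0.78), and had r = 0.52 with the hypothalamic marker sum.

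Insr had the closest companions, Tnks, Ireb2 and Son (each 0.90). The incretin receptors had the loosest: Gipr was most like Cd63 and Ankrd39 (each 0.64) and Cnn3 (0.62), and Glp1r like Apoc3 and Smoc1 (each 0.60) and Sec16a (0.57). Among the members, Npy2r with Prlr had 0.70 (0.59 without the 2 mice farthest from the Npy2r median), Lepr with Insr had 0.62 (0.62 without the 2 mice farthest from the Lepr median), and the neighbours Npy1r and Npy5r had 0.58. With the other members Gipr had r between −0.24 (Prlr) and 0.09 (Npy5r), and Glp1r between 0.01 (Gipr) and 0.43 (Ghsr). The incretin receptors had the lowest mean CPM of the members in every group, and Insr the highest. The part of these levels in the correlations was not tested.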

How the data were processed

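Messenger RNA of the hypothalamus was sequenced from 47 mice. The authors aligned reads with STAR, per the study's methods and the submitters' processing notes, and deposited whole-number counts per gene without normalization. The build is written as GRCh38 there, although the organism is mouse, and the counting program is not given in the sources used here. The table held 14221 genes, no row was removed by the filter on low counts, and the smallest row total was 307 counts. Totals ran from 1243280 to 47082403 counts, so that 1 count was worth most in the shallowest library.

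From the counts, edgeR 4.0.16 (R 4.3.3) fitted a quasi-likelihood negative binomial model with TMM factors and 1 mean per group. Adjustment of p-values was by Benjamini-Hochberg across the whole table. Calls required an adjusted p below 0.05 together with a log2 fold change beyond 0.5 in either direction, the limits of the study. DESeq2 1.42.0 and limma 3.58.1 were alternatives. Single values were also tested by the two-sided exact permutation test on log2(CPM + 0.5), with SciPy 1.17.1. The study describes separate cohorts of mice for the 3 days, and p-values measure the spread between mice within them. Positions came from GENCODE M21 and start-site windows from RefSeq.

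The 9 members, the related lists and the marker lists were chosen with earlier results of these data known. Named genes are the members, the called genes of the related lists (at most 5 per list and comparison, by size), the 3 genes most correlated with each member, and markers. A gene that this rule names is not reported here. Replicates were numbered in the order of deposition. The single-nucleus data of the study were not analysed here.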

Additional observations from a re-analysis of the deposited data

Results flagged for a closer look

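In 63 sets of values (9 genes in 7 groups), 5 mice stood apart by Dixon's test at 95%, where about 3 are expected, since chance flags about 1 in 20 groups. Lepr in vehicle replicate 2 of Day 1 was highest of 4 at 12.6 CPM, the next mouse being at 5.88 CPM. Gipr in vehicle replicate 4 of Day 1 was lowest of 4 at 3.36 CPM, the next at 4.89 CPM. Ghsr in FGF1 replicate 4 of Day 5 was highest of 9 at 11.7 CPM, the next at 7.73 CPM. Npy2r in non-diabetic vehicle replicate 1 of Day 5 was lowest of 7 at 18.1 CPM, the next at 25.7 CPM. Prlr in FGF1 replicate 4 of Day 1 was highest of 10 at 39.8 CPM, the next at 29.7 CPM.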

How the results depend on the processing

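No paired analysis was possible because the labels give no replicate numbers that the groups share. No member was called on Day 42 or between the vehicle groups under any alternative run. The Day 1 and Day 5 calls of Npy1r, Npy2r and Gipr come from the contrasts that chose the set, and nothing is read from their behaviour over alternatives. Gipr was not tested where at least 10 counts were asked of every library, which leaves 0 members called against either vehicle group on Day 5, and on Day 1 4 members were called without the fold-change limit and 3 without vehicle replicate 4. Genes called in all were 2776 on Day 1, 219 and 406 on Day 5 (non-diabetic and diabetic vehicle) and 0 on Day 42. With at least 10 counts in every library they were 1582, 140 and 219, since fewer genes were tested, and without the fold-change limit 6396, 661 and 1310. Against non-diabetic vehicle on Day 5, limma gave 438, libraries of that day alone 370, and the merged vehicle groups 372; the cause was not tested. Leaving out single mice gave 0 to 31 calls on Day 42, with 31 without FGF1 replicate 1 and 1 without FGF1 replicate 2, and, on Day 1, where the 4 vehicle mice and FGF1 replicate 1 were left out in turn, 2335 to 3088.

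On Day 42, members near 0 changed sign, with the cause not tested: under limma Npy2r was −0.06 and Npy5r −0.05; leaving out single mice, the reversed values were 0.03 and 0.08 for Lepr (−0.19 to 0.08 over all alternatives, and likewise for the others), 0.02 and 0.13 for Npy1r (−0.10 to 0.13), −0.05 and −0.10 for Npy2r (−0.10 to 0.21), −0.04 for Npy5r in both cases (−0.05 to 0.15) and 0.10 for Prlr (−0.23 to 0.10). Of the 3 most alike genes of each member, 10 of 27 were also among the first 3 by Spearman correlation. The order of levels per kb moved in 21 of 63 places with the length of the longest transcript in place of the exon union.

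Depth limits Glp1r and Gipr most, with 1 and 3 reads in the shallowest library.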

Other observations

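The ligands of the ghrelin receptor differed between days in FGF1 and vehicle mice alike. Ghrl, the ghrelin transcript, measured 3.67 to 5.90 CPM in the FGF1 mice of Day 5, 3.67 to 5.01 CPM in the non-diabetic and 3.45 to 5.48 CPM in the diabetic vehicle mice of that day, against at most 0.52 CPM in any mouse of Day 1 and at most 0.367 CPM in any mouse of Day 42. Leap2, an antagonist of the same receptor, measured 0.543 to 2.37 CPM in the 23 mice of Day 5 and was at 0 reads in 17 of the 24 mice of Days 1 and 42. Each day had its own preparation, so day and preparation cannot be told apart. Ghsr itself did not follow this pattern, at 12.2 CPM on Day 1, 7.93 CPM on Day 5 and 8.93 CPM on Day 42 in the non-diabetic vehicle mice.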
